A study of Mus musculus with 10 samples.

Results

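The genes described here encode subunits of respiratory complexes II, III, IV and V, measured by microarray in 10 melanoma tumours of male mice. They were picked by a rule on gene symbols, and were chosen with earlier results of these data known. A probe set is a group of array probes read as 1 value. The rule takes every probe set whose single annotated gene is Sdha, Sdhb, Sdhc, Sdhd or Cyc1. It also takes those whose single gene begins with Uqcr or Atp5, or with Cox followed by a digit from 4 to 8. The rule found 67 of 35556 probe sets, which belong to 47 of the 19938 genes with a value. Complex II has 4 of these genes, complex III 9, complex IV 17 and complex V 17. Another 3 probe sets, annotated to both Cox7c and Gm12338, were left out because they have more than 1 symbol.

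The labels put 5 tumours in an Exercise group, titled 300, 301, 306, 309 and 310, and 5 in a non-Exercise group, titled 326, 327, 329, 330 and 331, with 1 array per tumour. The series title speaks of voluntary exercise and of natural killer cells entering tumours. The labels name no mouse strain, age, melanoma cell line, genotype or length of exercise, and all animals are given as male. They do not say whether the tumours came from separate mice, so the p-values below measure the spread between these 10 samples. All values are log2 array signals after quantile normalization, listed in the order of titles just given, and a log2 change is the mean of the exercise arrays minus that of the non-exercise arrays.

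The respiratory chain sits in the inner membrane of the mitochondrion. Complex II, succinate dehydrogenase, oxidises succinate in the citric acid cycle and passes the electrons to coenzyme Q. Complex III, the cytochrome bc1 complex, moves them from coenzyme Q to cytochrome c, and complex IV, cytochrome c oxidase, moves them on to oxygen. Complexes III and IV pump protons across the membrane, and complex V, the ATP synthase, lets the protons back through a rotating ring to make ATP. All 4 subunits of complex II are nuclear genes, whereas cytochrome b of complex III, the catalytic core of complex IV and 2 membrane subunits of complex V are encoded in mitochondrial DNA, outside the rule used here. Melanomas differ in how much they rely on oxidative phosphorylation, and the coactivator Ppargc1a is known to drive these genes in some of them.

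Array medians in the deposited table lay between 8.64 and 8.77. After quantile normalization, pairs of arrays correlated at 0.960 to 0.996 across genes. The tissue label was borne out by 10 melanocytic markers, whose mean signals lay between percentiles 82.5 and 99.9 of all genes. Their summed level, taken as the mean difference from each gene's average, ran from -0.11 to 0.063 in the exercise arrays and from -0.069 to 0.088 in the others, and 0 of 10 passed the test. Leukocyte and macrophage markers rose, 10 of 10, with a median change of 1.07 and summed levels of -0.22 to 1.07 against -0.83 to -0.31. Hepatocyte markers, of which 2 of 13 rose, were high in exercise arrays 306, 309 and 310, at 1.71, 1.67 and 1.05. The values for exercise 300 and 301 were -0.58 and -0.81, and those of the other group -0.82 to -0.42. Skeletal muscle markers ranged from -0.96 to 1.35 in the exercise arrays and from -0.59 to 0.15 in the others, with 0 of 18 past the test. Adipocyte markers ran from -0.62 to 1.04 against -0.56 to 0.34, with 1 of 11 higher, and keratinocyte markers from -0.16 to 0.092 against -0.092 to 0.11, with 0 of 10. None of these markers is at 0, since the arrays give every probe set a value. Beside these counts, 6.35% of all genes were called higher and 10.6% lower. In bulk tumour RNA, fewer cells of a type and less RNA per cell cannot be told apart, and the part that these marker levels play in the results below was not tested.

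Of the 47 subunit genes, 6 fell in the exercise tumours: Uqcrfs1 of complex III, Cox6a1, Cox7a1 and Cox7a2 of complex IV, and Atp5d and Atp5e of complex V. None rose. The test was limma's moderated linear model with Benjamini-Hochberg adjustment over all 19938 genes and a threshold of 0.05, under which 41 subunit genes did not pass. At an unadjusted p under 0.05 the counts were 15 lower and 2 higher, or 31.9% and 4.26% of the subunits, beside 18% and 11.2% of all genes. The 6 genes are 12.8% of the subunits, beside 10.6% of all genes called lower and 6.35% called higher, so their share lies near the background. Among all calls 37.4% were higher, or 23.4% when each array was only centred on its median, a setting under which 14 subunit genes and 15.4% of all genes were lower.

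Most differences were small and of 1 sign. The change was below 0 for 36 of the 47 subunits, or 76.6%, beside 57.1% of all genes, and the median change was -0.073 beside -0.024 over all genes. For 5 subunits every exercise array lay below every non-exercise array, which is 10.6% of them against 8.33% of all genes. The opposite held for 1 subunit, Atp5g2, beside 3.74% of all genes. Subunit genes are strongly expressed, with 39 of 47 above percentile 75 of all genes by mean signal. Of these 39, 5 were lower, or 12.8%, against 17.9% of all 4985 genes above that percentile, and none was higher, against 11.0%.

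**Figure D1:**
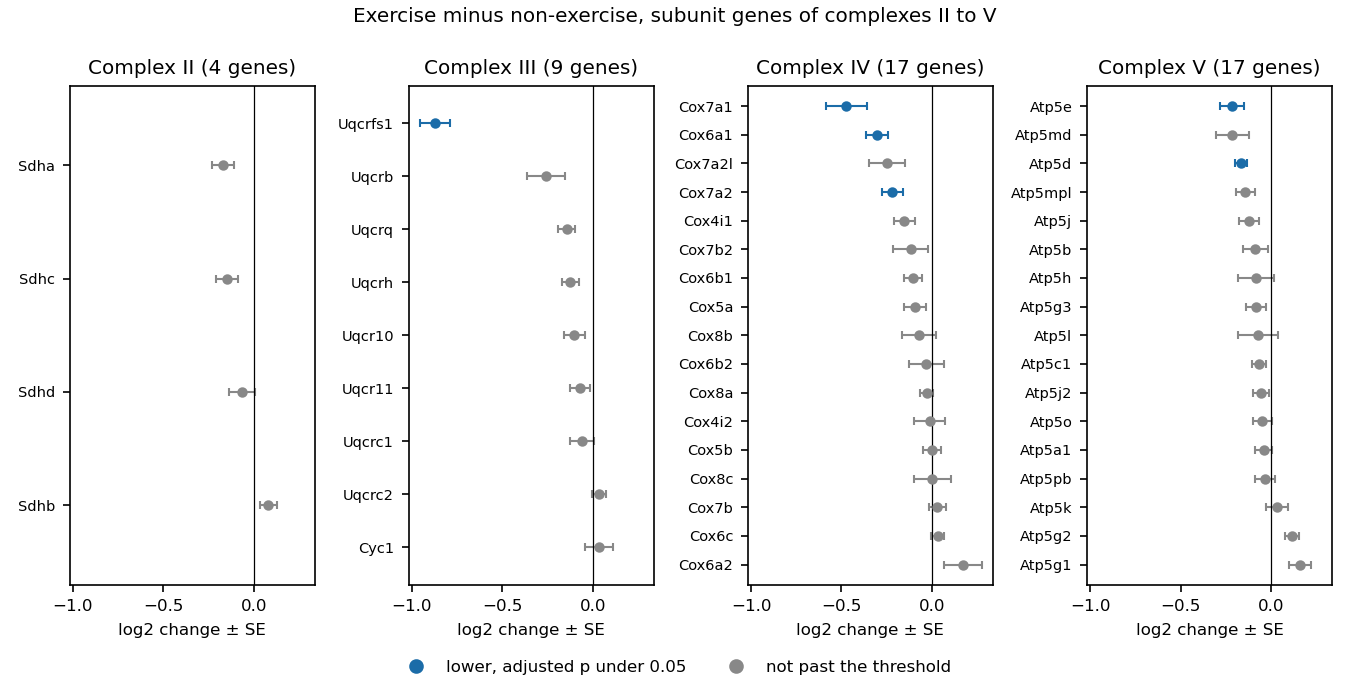
Log2 change, exercise minus non-exercise, of each of the 47 subunit genes (points) in complexes II to V; 1 panel per complex, with horizontal bars of 1 standard error. Blue genes were lower at an adjusted p under 0.05 in limma's test and grey genes did not pass; Uqcrfs1 stands lowest at -0.87, and every other gene lies between -0.47 and 0.17.

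Complex II had no subunit past the threshold. Sdha carries the flavin that takes electrons from succinate, Sdhb holds the iron-sulfur clusters, and Sdhc and Sdhd anchor both in the membrane. Sdha read 12.58, 12.40, 12.46, 12.60 and 12.40 in the exercise arrays and 12.61, 12.68, 12.74, 12.78 and 12.48 in the non-exercise arrays. The groups overlapped through non-exercise array 331, and the change of -0.17 ± 0.06 (SE, n = 5 per group) had an adjusted p of 0.0691 in limma's test. Sdhc read 10.78, 10.74, 10.80, 10.68 and 10.89 against 11.03, 11.02, 10.85, 10.82 and 10.92, a change of -0.15 with an adjusted p of 0.112. Sdhb, at 12.69, 12.67, 12.83, 12.81 and 12.61 against 12.66, 12.65, 12.61, 12.68 and 12.62, differed the other way by 0.081 (adjusted p = 0.290), a sign that turned when arrays were centred on their medians. Its exercise arrays spread far more than the tight non-exercise ones, with an SD of 0.096 against 0.026. Sdhd read 12.16, 12.12, 12.09, 12.19 and 11.77 against 12.08, 12.13, 12.16, 12.24 and 12.03, and its change of -0.065 (adjusted p = 0.644) turned sign without exercise array 310, the lowest. The median over the 4 genes was -0.11.

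Complex III gave the largest change of all 47 genes. Uqcrfs1 encodes the Rieske iron-sulfur protein, the mobile subunit that takes the first electron from coenzyme Q and hands it to cytochrome c1. Its signal was 10.07, 10.10, 10.14, 10.31 and 9.85 in the exercise arrays and 10.98, 11.08, 11.05, 10.96 and 10.76 in the non-exercise arrays. The highest exercise array, 309, lay well below the lowest non-exercise array, 331, so the groups did not overlap. The group means were 10.09 ± 0.17 and 10.96 ± 0.13 (SD, n = 5 each), and the change was -0.87 ± 0.08 (SE) with an adjusted p of 5.78e-05 in limma's test, a 1.83-fold lower signal. Leaving out any 1 array kept the change between -0.93 and -0.81, with adjusted p up to 0.000407, and without the 3 arrays with hepatocyte markers it was -0.89. That last setting kept exercise arrays 300 and 301 only, against all non-exercise arrays. Of all genes it called 8.09% lower and 3.78% higher, beside 10.6% and 6.35% with all arrays.

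None of the other redox and core subunits of complex III passed the test. Cyc1, cytochrome c1, the partner that receives the Rieske protein's electron, read 11.93, 11.82, 12.04, 11.66 and 11.92 against 11.95, 11.97, 11.88, 11.72 and 11.67. The arrays of both groups covered nearly the same range, and its change of 0.035 ± 0.08 (SE; adjusted p = 0.846) turned sign under median centring. Uqcrc1 and Uqcrc2, the large core proteins on the matrix side, had changes of -0.058 and 0.033, with adjusted p of 0.658 and 0.672.

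The 5 small subunits around the core, Uqcrb, Uqcrh, Uqcrq, Uqcr10 and Uqcr11, all had a change below 0, as did 57.1% of all genes. Their changes lay between -0.26 and -0.071. None passed the adjusted threshold. At an unadjusted p under 0.05 in limma's test 3 of the 5 were lower, beside 18% of all genes. Uqcrq, which lies beside cytochrome b, read 11.81, 11.97, 12.02, 11.92 and 11.88 against 12.09, 12.13, 12.02, 12.05 and 12.03, a change of -0.14 ± 0.05 (SE; adjusted p = 0.0556). Its groups only just overlapped, at exercise array 306 and non-exercise array 329. Uqcrh, the acidic hinge protein near cytochrome c1, read 11.61, 11.69, 11.67, 11.56 and 11.53 against 11.77, 11.79, 11.70, 11.77 and 11.66, a change of -0.12 with an adjusted p of 0.103. Uqcrb, part of the coenzyme Q site region, read 11.42, 11.36, 11.19, 11.01 and 11.58 against 11.70, 11.66, 11.52, 11.26 and 11.70, a change of -0.26 ± 0.11 (SE; adjusted p = 0.113). Its arrays spread widely within each group, from 309 at the bottom to 310 at the top of the exercise arrays and with 330 alone at the bottom of the others. The median of complex III was -0.10 over 9 genes and -0.087 over the 8 genes other than Uqcrfs1.

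**Figure D2:**
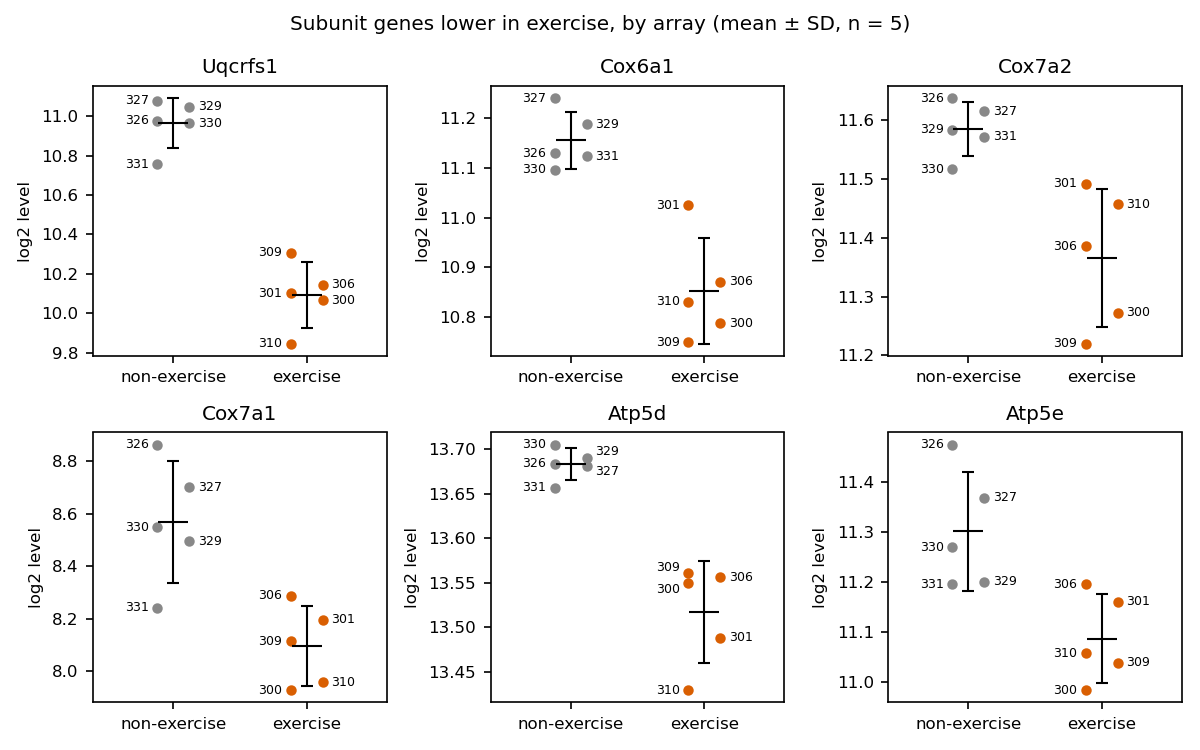
Log2 signal of the 6 subunit genes that passed the test, 1 panel per gene, each array a point labelled with its title number, with bars at the mean ± SD of the 5 arrays of a group. The axes do not start at 0 and differ between panels. In 5 of the 6 genes the groups do not overlap; in Cox7a1 exercise array 306 lies above non-exercise array 331.

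In complex IV, 3 of 17 genes fell, or 17.6%, beside 10.6% of all genes. Cox6a1 and Cox7a2 are the common forms of small subunits that lie at the membrane surface and the dimer edge of the enzyme, while Cox7a1 is the form of heart and skeletal muscle. Cox6a1 read 10.79, 11.02, 10.87, 10.75 and 10.83 in the exercise arrays and 11.13, 11.24, 11.19, 11.10 and 11.12 in the others. Every exercise array was lower, and the change was -0.30 ± 0.06 (SE; adjusted p = 0.00375 in limma's test), a 1.23-fold lower signal. Cox7a2 read 11.27, 11.49, 11.39, 11.22 and 11.46 against 11.64, 11.61, 11.58, 11.52 and 11.57. Here too the groups did not overlap, but exercise array 301 came close to non-exercise array 330. Its change was -0.22 ± 0.06 (SE; adjusted p = 0.0194), and this call was lost without non-exercise array 326 or 327, with adjusted p up to 0.0570, and without exercise arrays 306, 309 and 310 together, at 0.0743.

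Cox4i1, the common form of the largest nuclear subunit and the one that binds regulatory nucleotides, read 11.56, 11.69, 11.81, 11.71 and 11.63 against 11.87, 11.83, 11.91, 11.87 and 11.69, a change of -0.15 with an adjusted p of 0.0888. Cox4i1 passed the threshold without exercise array 306 or non-exercise array 331, with an adjusted p down to 0.0308, and also in the table as deposited (0.0451), under median centring (0.0192) and with array weights (0.0257). Cox6b1, which joins the monomers of the enzyme on the outer face, read 12.22, 12.38, 12.39, 12.38 and 12.34 against 12.50, 12.51, 12.50, 12.42 and 12.30 (change -0.11, adjusted p = 0.185), again with array 331 low. Cox7b read 12.70, 12.77, 12.71, 12.65 and 12.86 against 12.76, 12.76, 12.69, 12.65 and 12.69, a change of 0.030 that turned to -0.12 on its other probe set. Cox8a, at 12.98, 13.07, 13.08, 13.04 and 13.01 against 13.04, 13.09, 13.12, 13.05 and 13.03, differed by -0.029. The changes of Cox5a, Cox5b and Cox6c were -0.092, 0.00 and 0.033. Of the 10 genes that are not tissue forms 2 fell, or 20%, beside 10.6% of all genes. A change below 0 was found for 7 of the 10, or 70%, beside 57.1% of all genes, and their median was -0.099.

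Cox7a2l, also called SCAFI, links complex III to complex IV in a supercomplex. Its 2 probe sets differed in call. The one with the higher signal read 9.08, 9.17, 9.22, 8.91 and 9.33 against 9.51, 9.57, 9.45, 9.16 and 9.26, a change of -0.25 ± 0.10 (SE; adjusted p = 0.105). The other changed by -0.33 and was called lower in limma's fit of all 21789 probe sets with 1 gene, with an adjusted p of 0.0184, in a fit that called 10.3% of probe sets lower and 6.28% higher. Both sets put the exercise arrays below the others on average and both overlapped.

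Complex IV is the complex with tissue forms of its subunits. Cox4i2 is known from lung, Cox6a2, Cox7a1 and Cox8b from heart and skeletal muscle, with Cox7a1 and Cox8b also in brown fat, and Cox6b2, Cox7b2 and Cox8c from testis. Of these 7 genes 1 fell, or 14.3% beside 10.6% of all genes, namely Cox7a1. It read 7.93, 8.20, 8.29, 8.11 and 7.96 in the exercise arrays and 8.86, 8.70, 8.50, 8.55 and 8.24 in the others, so 4 of the 5 exercise arrays lay below every non-exercise array and array 306 lay just above array 331. The change was -0.47 ± 0.11 (SE; adjusted p = 0.0118 in limma's test), a 1.39-fold lower signal, and it kept passing with any 1 array left out, at -0.55 to -0.40. Its mean signal stood at percentile 34.3 of all genes, and no detection call was used here to tell such a signal from background.

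Of the skeletal muscle markers 0 of 18 passed, and their median change was 0.31. Their summed level was highest in exercise arrays 309 and 306, at 1.35 and 0.99, and lowest in exercise arrays 310 and 301, at -0.96 and -0.93. Their part in the change of Cox7a1 was not tested. Leaving out arrays 306, 309 and 310 gave -0.51 for Cox7a1, with an adjusted p of 0.0453. The other muscle forms did not pass. Cox6a2 read 9.06, 9.06, 8.99, 9.14 and 8.70 against 8.71, 8.63, 8.78, 8.91 and 9.08, a change of 0.17 with an adjusted p of 0.309. Cox8b read 7.93, 7.66, 7.88, 8.01 and 7.91 against 8.04, 7.87, 7.98, 7.74 and 8.09, a change of -0.070 with an adjusted p of 0.714.

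Neither the lung form nor the testis forms passed. Cox4i2 read 10.58, 10.41, 10.24, 10.51 and 10.21 against 10.34, 10.24, 10.38, 10.49 and 10.57, a change of -0.013 that turned positive with array weights and without exercise arrays 306, 309 and 310. Cox6b2 read 8.85, 8.80, 8.84, 9.05 and 8.55 against 8.81, 8.84, 8.72, 9.09 and 8.78, with a change of -0.031 that turned positive in the table as deposited and with array weights. For Cox7b2 the values were 7.49, 7.51, 7.73, 7.30 and 7.29 against 7.72, 7.50, 7.52, 7.65 and 7.52, a change of -0.12 with an adjusted p of 0.500. Cox8c read 8.20, 8.18, 8.26, 8.45 and 7.98 against 8.15, 8.02, 8.18, 8.40 and 8.31, a change of 0.0027. The 6 tissue forms other than Cox7a1 lay between -0.12 and 0.17 with a median of -0.022, close to the median of all genes. Cox7b2, Cox8b and Cox8c had mean signals at percentiles 15.4, 23.8 and 31.2 of all genes.

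**Figure D3:**
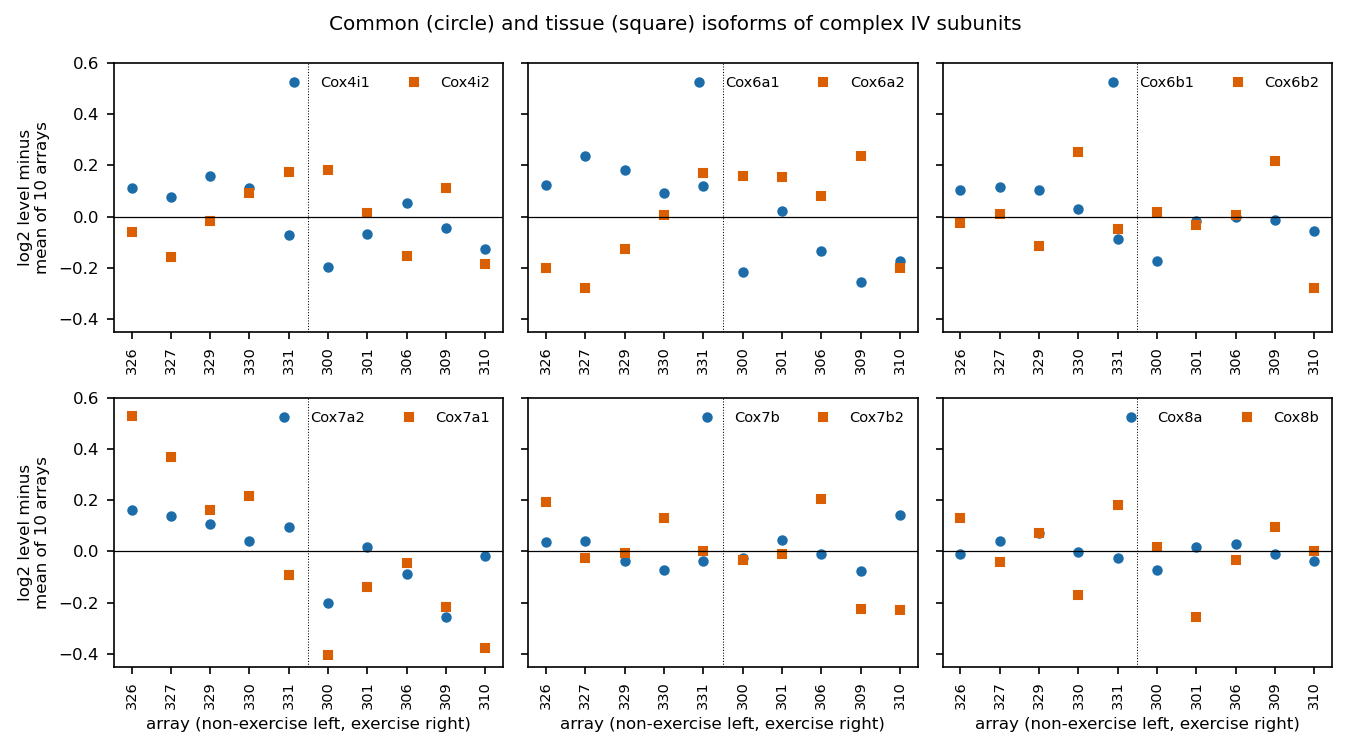
Log2 signal of common (blue circles) and tissue (orange squares) forms of 6 complex IV subunits, each minus the gene's mean over all 10 arrays, with non-exercise arrays left and exercise arrays right of the dotted line. Within Cox6a and Cox7a the common forms Cox6a1 and Cox7a2 were lower in the exercise arrays; of the tissue forms Cox7a1 was lower, and Cox6a2 was not past the test at a change of 0.17.

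Of the 17 genes of complex V, 2 fell, or 11.8%, beside 10.6% of all genes. Atp5d is the delta subunit and Atp5e the epsilon subunit, which bind each other at the foot of the central stalk, the shaft that turns inside the catalytic head. Atp5d read 13.55, 13.49, 13.56, 13.56 and 13.43 in the exercise arrays and 13.68, 13.68, 13.69, 13.71 and 13.66 in the others. The non-exercise arrays agreed within an SD of 0.018, every exercise array was lower, and the change was -0.17 ± 0.03 (SE; adjusted p = 0.00521 in limma's test), a 1.12-fold lower signal. Without an intensity trend in the variances the adjusted p was 0.0569.

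Atp5e read 10.98, 11.16, 11.20, 11.04 and 11.06 against 11.47, 11.37, 11.20, 11.27 and 11.20, so that exercise array 306 equalled non-exercise arrays 329 and 331 to 2 decimals and the other exercise arrays were below all others. Its change was -0.21 ± 0.07 (SE; adjusted p = 0.0366), a 1.16-fold lower signal. It no longer passed when any of exercise arrays 300, 309 and 310 or of non-exercise arrays 326, 327 and 330 was dropped (adjusted p up to 0.106), without the intensity trend (0.0669) or without arrays 306, 309 and 310 (0.0990).

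The rest of the catalytic head did not pass. Atp5b, the beta subunit that holds the catalytic sites, read 13.19, 13.39, 13.33, 13.00 and 13.41 against 13.34, 13.29, 13.44, 13.31 and 13.38, a change of -0.087 with an adjusted p of 0.466. Exercise array 309 stood lowest and the groups overlapped. Atp5a1, the alpha subunit that alternates with it, read 13.08, 12.95, 13.03, 12.98 and 12.89 against 13.03, 13.05, 13.04, 13.09 and 12.92, a change of -0.041 ± 0.05 (SE; adjusted p = 0.637). Atp5c1, the gamma subunit that forms the shaft with delta and epsilon, had a change of -0.068 (adjusted p = 0.269). All 5 genes of the head and shaft had a change below 0, as did 57.1% of all genes, and their median was -0.087.

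The peripheral stalk, which keeps the head from turning with the shaft, had 0 of 4 genes past the threshold. The changes of Atp5pb, Atp5h, Atp5j and Atp5o ran from -0.12 to -0.034, on the brightest probe set of each. The other probe set of Atp5pb changed by -0.16, with every exercise array below every non-exercise array. Its adjusted p was 0.0685 in limma's fit of all probe sets with 1 gene. Other probe sets of Atp5h changed by as much as -0.15 and did not pass. Among the small membrane subunits Atp5j2, Atp5k, Atp5l, Atp5md and Atp5mpl, which hold ATP synthase dimers together and shape the membrane around them, again 0 of 5 passed, with changes of -0.21 to 0.032. Atp5mpl read 11.43, 11.58, 11.47, 11.46 and 11.51 against 11.63, 11.70, 11.73, 11.59 and 11.52 (change -0.14, adjusted p = 0.0808), with only exercise array 301 and non-exercise array 331 crossing. The change of Atp5md was -0.21 ± 0.09 (SE; adjusted p = 0.125).

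For subunit c the change was positive in 2 of 3 genes, and none passed. It forms the rotating proton ring, and Atp5g1, Atp5g2 and Atp5g3 encode the same mature protein with different import sequences. Atp5g2 read 13.00, 13.06, 13.15, 13.07 and 13.02 in the exercise arrays and 12.99, 12.95, 12.90, 12.99 and 12.89 in the others, so all exercise arrays were above all others, narrowly at exercise array 300 and non-exercise arrays 326 and 330. Its change was 0.12 ± 0.04 (SE), and the adjusted p of 0.0618 missed the threshold. On 1 of its 2 other probe sets, which changed by 0.13, it was 0.0418 in the fit of all probe sets. Under median centring the change was 0.052. Atp5g1 read 12.60, 12.45, 12.71, 12.55 and 12.42 against 12.49, 12.43, 12.26, 12.41 and 12.34, with 3 exercise arrays above all others and a change of 0.16 ± 0.06 (SE; adjusted p = 0.0834). It passed when exercise array 310 was left out, at 0.0413. Atp5g3, at 12.88, 12.85, 12.98, 12.98 and 12.71 against 12.98, 12.98, 13.01, 13.02 and 12.83, differed the other way, by -0.083 with an adjusted p of 0.381.

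The promoters of 3 of the genes that fell and of Atp5g2 are shown because they hold a motif match, and were picked after the matches were seen. Nuclear respiratory factor 1, the ETS factor GABP and YY1, whose motifs were searched, are textbook regulators of respiratory genes. Each sequence is the 250 bases before the gene's RefSeq start in GRCm38.p6, 5′ to 3′ on the gene's strand, with matches on either strand to 2 motifs in capitals: GCGCANG, the core of the NRF1 site, and CCGGAAG, the ETS site. Uqcrfs1 (chr13:30545317-30545566, minus strand) has NRF1 letters starting 110 and 16 bases before the start. In Cox6a1 (chr5:115348959-115349208, minus) they start 162, 159 and 117 bases before it, the first 2 being the same palindrome read on both strands, and ETS letters start at 16 bases. Atp5e (chr2:174464102-174464351, minus) has ETS letters from 102 bases, and Atp5g2 (chr15:102671048-102671297, minus) an NRF1 palindrome read at 42 and 39 bases.
Uqcrfs1: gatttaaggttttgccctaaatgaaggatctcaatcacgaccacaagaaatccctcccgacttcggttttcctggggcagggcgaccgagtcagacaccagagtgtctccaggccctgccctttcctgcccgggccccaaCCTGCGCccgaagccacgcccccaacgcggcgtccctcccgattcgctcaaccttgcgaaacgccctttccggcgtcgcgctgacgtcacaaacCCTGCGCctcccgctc
Cox6a1: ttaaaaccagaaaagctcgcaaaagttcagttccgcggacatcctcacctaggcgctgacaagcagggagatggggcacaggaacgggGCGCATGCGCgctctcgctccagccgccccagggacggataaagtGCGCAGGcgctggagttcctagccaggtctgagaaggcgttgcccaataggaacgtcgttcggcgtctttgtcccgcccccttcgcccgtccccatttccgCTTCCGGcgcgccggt
Atp5e: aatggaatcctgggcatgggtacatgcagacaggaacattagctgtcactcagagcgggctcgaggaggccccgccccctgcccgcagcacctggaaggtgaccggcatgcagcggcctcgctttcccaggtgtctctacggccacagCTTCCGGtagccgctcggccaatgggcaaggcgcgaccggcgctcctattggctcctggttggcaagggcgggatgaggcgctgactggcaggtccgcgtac
Atp5g2: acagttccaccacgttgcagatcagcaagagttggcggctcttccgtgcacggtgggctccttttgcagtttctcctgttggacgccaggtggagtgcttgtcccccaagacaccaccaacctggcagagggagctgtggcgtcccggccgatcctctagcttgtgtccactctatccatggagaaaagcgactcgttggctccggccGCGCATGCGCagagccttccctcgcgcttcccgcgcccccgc

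The RefSeq table held promoters for 35 of the 47 subunit genes, including all 6 that fell. The NRF1 letters occurred in 13 of these 35 genes, or 37.1%, beside 15.5% of all 27025 genes with a promoter. The ETS letters occurred in 9, or 25.7%, beside 7.83%, and the YY1 letters AAGATGG in 1, Atp5j, or 2.86% beside 5.18%. Among the 6 genes that fell, NRF1 letters were found in Uqcrfs1 and Cox6a1 and ETS letters in Atp5e and Cox6a1. Cox7a1, Cox7a2 and Atp5d, which also fell, hold none of the 3 motifs in this window, nor does Atp5g1. A match is a run of letters and not a measured binding site.

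Averaged over its genes, each complex had a lower mean in the exercise group. The mean difference from each gene's average, per array, was -0.088, -0.081, -0.019, -0.11 and -0.13 for complex III in the exercise arrays and 0.14, 0.15, 0.077, 0.040 and 0.024 in the others, without overlap. Leaving out Uqcrfs1 gave -0.041, -0.037, 0.026, -0.10 and -0.063 against 0.10, 0.10, 0.022, -0.0093 and -0.00088, which overlap through exercise array 306. Complex IV gave -0.070, -0.031, 0.000077, -0.032 and -0.10 against 0.082, 0.043, 0.055, 0.042 and 0.014, without overlap, though 306 and 331 lay close. Complex II ran from -0.13 to 0.018 in the exercise arrays and from -0.038 to 0.080 in the others, and complex V from -0.080 to -0.0043 against -0.019 to 0.066, both overlapping. Over all 47 genes the means were -0.049 ± 0.03 and 0.049 ± 0.03 (SD, n = 5 each). These averages have no test here because the genes were chosen with earlier results of these data known.

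**Figure D4:**
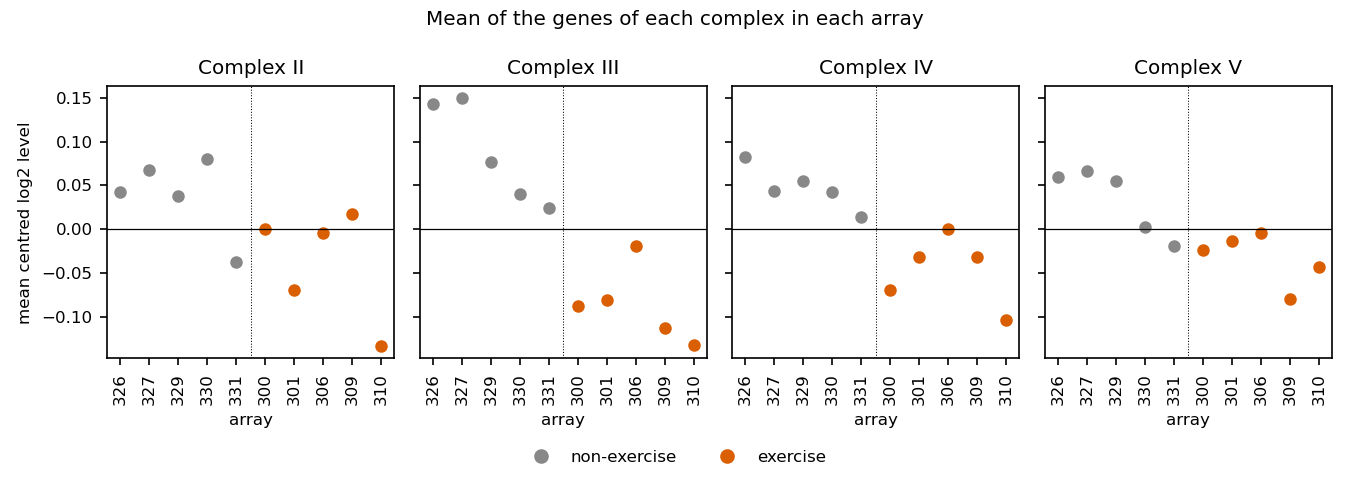
Mean over the genes of each complex of the log2 signal minus each gene's average over all 10 arrays, 1 point per array and 1 panel per complex, with non-exercise arrays left and exercise arrays right of the dotted line. Exercise and non-exercise arrays do not overlap in complexes III and IV and overlap in complexes II and V.

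Single arrays lay at the edge of their group for many subunits. Exercise array 310 was the lowest exercise array for 21 of the 47 genes, among them Sdhb, Sdhd, Uqcrfs1 and Atp5d, and array 306 was the highest for 17. In the other group array 331 was lowest for 21 genes and array 326 for none. The same counts were not made over all genes, so whether they are particular to the subunits was not tested. A different set of 8 genes, Sdhc, Uqcrb, Cox7a2l, Cox7b, Atp5md, Atp5b, Atp5h and Atp5l, had array 309 lowest and array 310 highest of the exercise arrays. Of these 8, 6 have several probe sets on the array, against 3 of the 21 genes with array 310 lowest and 12 of all 47 genes. The 32 probe sets of those 12 genes carry the same symbol, and 2 of the 6 for Atp5l hold identical values; whether their probes also bind near-identical copies of these genes was not tested. Except for Cox5b and Cox7b the probe sets of a gene had changes of the same sign.

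Only 1 subunit encoded in mitochondrial DNA had a probe set with a single gene, mt-Co2, listed as COX2, the copper-bearing subunit of complex IV. It read 13.18 ± 0.17 in the exercise arrays and 13.12 ± 0.11 in the others (SD, n = 5 each), a change of 0.063 with an adjusted p of 0.671. These values are from the brighter of its 2 probe sets, and the other is not given here. The remaining 5 listed genes of mitochondrial DNA were not analysed here.

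The factors that assemble these complexes are not part of them once built. Of 36 assembly factors of complexes II to V, 11 fell, or 30.6%, and none rose. That share stands beside the 12.8% of subunits and 10.6% of all genes called lower, and the difference between the shares was not tested. A change below 0 was found for 35 of the 36, beside 57.1% of all genes, and the median was -0.16. The count called lower moved with the processing, from 5 at a threshold of 0.01 to 17 under median centring. It was 6 without exercise arrays 306, 309 and 310, where exercise arrays 300 and 301 alone remained. In these settings 5.05%, 15.4% and 8.09% of all genes were lower, in that order.

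Complex II, whose subunits did not pass, had 3 of its 4 assembly factors lower, or 75%, beside 10.6% of all genes. Sdhaf4, which shields the flavin-loaded Sdha, read 9.67, 9.57, 9.47, 9.57 and 9.41 in the exercise arrays and 10.06, 10.22, 10.07, 10.07 and 9.81 in the others, without overlap, a change of -0.51 ± 0.08 (SE; adjusted p = 0.000969 in limma's test). That value is from the brighter of its 2 probe sets. The other had a change of -0.032 with an adjusted p of 0.900 in the fit of all probe sets, and the mean of both changed by -0.27 (adjusted p = 0.0209). Sdhaf2, which helps attach the flavin to Sdha, changed by -0.27 ± 0.05 (SE; adjusted p = 0.00324). Sdhaf1, which helps load the iron-sulfur clusters of Sdhb, changed by -0.25 (adjusted p = 0.0254), but not past the threshold without non-exercise array 327 or 329, at up to 0.0756, or without arrays 306, 309 and 310, at 0.146.

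In complex III the factor that fell was Bcs1l, the ATPase that moves the folded Rieske protein, the product of Uqcrfs1, across the inner membrane into the complex. It was the only one of 6, or 16.7%, beside 10.6% of all genes called lower. Bcs1l read 9.82, 9.77, 9.85, 9.70 and 9.65 against 10.13, 10.11, 10.16, 10.17 and 10.05, without overlap, a change of -0.37 ± 0.06 (SE, adjusted p = 0.00134). Uqcc1, which takes part in cytochrome b synthesis, had a change of -0.19 (adjusted p = 0.0667), and Ttc19, which clears fragments of the Rieske protein, of -0.16 (adjusted p = 0.121).

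Complex IV had 6 of 21 factors lower, or 28.6%, beside 10.6% of all genes. Cox15 makes the heme A of the enzyme and read 10.42, 10.39, 10.61, 10.54 and 10.31 against 10.89, 10.85, 10.83, 10.96 and 10.69. Its change was -0.39 ± 0.07 (SE, adjusted p = 0.00221) with no overlap. Cox14, which supports the synthesis of the first mitochondrial subunit, changed by -0.30 (adjusted p = 0.00921). Cmc1, which holds that subunit during assembly, changed by -0.23 (adjusted p = 0.0132) and lost its call without arrays 306, 309 and 310, at 0.182. The other 3, Coa7, Sco1 and Coa4, named here after their values were seen, changed by -0.31, -0.22 and -0.25.

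The complex V list of assembly factors and regulators had 6 genes, of which 1 rose and 1 fell. Each is 16.7% of the list, beside 6.35% of all genes called higher and 10.6% called lower. Atpif1, which blocks the ATP synthase from running backwards, rose. It read 11.68, 11.65, 11.65, 11.46 and 11.81 in the exercise arrays and 11.45, 10.82, 11.35, 10.92 and 11.49 in the others. Its change was 0.44 ± 0.12 (SE, adjusted p = 0.0218). The non-exercise arrays spread widely, with 327 and 330 low, and exercise array 309 lay below non-exercise array 331. Atpif1 no longer passed when exercise 310, non-exercise 327 or non-exercise 330 was dropped (up to 0.0605), under median centring (0.0609), with robust variances (0.0594) or without arrays 306, 309 and 310 (0.0774). Fmc1, which supports assembly of the catalytic head, changed by -0.29 ± 0.08 (SE; adjusted p = 0.0234) and missed the threshold, at up to 0.0615, when any of arrays 300, 310, 327, 329 and 330 was dropped, and at 0.0715 without arrays 306, 309 and 310. Atpaf1, a chaperone of the beta subunit, had a change of -0.18 (adjusted p = 0.103).

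Around the chain, 1 of 5 genes of cytochrome c and the carriers fell, or 20%, beside 10.6% of all genes. Slc25a4, the ADP/ATP carrier of muscle, changed by -0.18 ± 0.05 (SE; adjusted p = 0.0273), a call lost without any of 5 arrays (exercise 310 and non-exercise 326, 327, 329 and 330), at up to 0.0738, without the intensity trend (0.0838) and without arrays 306, 309 and 310 (0.119). Cycs, cytochrome c, had a change of 0.079 (adjusted p = 0.645), and Slc25a3, the phosphate carrier, of -0.071 (adjusted p = 0.230). Of 12 genes of coenzyme Q synthesis 2 fell, or 16.7%, beside the same 10.6%. Coq8a and Coq8b, atypical kinases needed for coenzyme Q synthesis, changed by -0.51 ± 0.12 (SE; adjusted p = 0.00985) and -0.38 ± 0.08 (SE; adjusted p = 0.00564), and without arrays 306, 309 and 310 Coq8a changed by -0.80. Coq7, a hydroxylase of the same route, had a change of -0.25 (adjusted p = 0.0798) and passed with array weights (0.0280).

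Among 13 transcriptional regulators of respiratory genes, 2 rose and 1 fell. That is 15.4% and 7.69%, beside 6.35% of all genes called higher and 10.6% called lower. Ppargc1a, the coactivator that raises mitochondrial gene expression, rose: it read 11.97, 11.97, 11.87, 11.76 and 12.06 in the exercise arrays and 11.71, 11.50, 11.48, 11.74 and 11.44 in the others, a change of 0.35 ± 0.07 (SE; adjusted p = 0.0045 in limma's test). All exercise arrays lay above all others, by a narrow margin at 309 and 330. These values are from the brighter of the 2 probe sets of Ppargc1a. The other changed by 0.38 and missed the threshold, with an adjusted p of 0.0656 in limma's fit of all probe sets. Gabpb2, a partner of the ETS factor Gabpa, changed by 0.26 (adjusted p = 0.010), but missed the threshold under median centring, at 0.17 and 0.0611, and without arrays 306, 309 and 310, at 0.0619. Tfb1m, which modifies the mitochondrial small ribosomal RNA, fell. It read 9.96, 9.82, 9.89, 9.82 and 9.77 against 10.23, 10.28, 10.31, 10.15 and 10.17, a change of -0.38 ± 0.06 (SE, adjusted p = 0.00114). Esrra, Nrf1, Gabpa and Tfam, the other usual activators, had changes of -0.20, 0.052, -0.0068 and -0.24, with adjusted p of 0.123, 0.591, 0.973 and 0.229.

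Hypoxia, which lowers respiration in many tumours, was covered by 14 response genes, of which 1 passed the test. That is 7.14%, beside 17.0% of all genes past the test in either direction. Pgk1, a glycolytic enzyme and target of the hypoxia factor, fell by 0.20 on the log2 scale (adjusted p = 0.00587), and the median over the list was 0.0068. Ndrg1, a stress response gene, had a change of 0.35 (adjusted p = 0.0516), and passed without exercise array 300 or non-exercise array 331 (down to 0.00395), after the filter on dim genes (0.0434) and with array weights (0.00982). Ero1a, an oxidase of protein folding, had a change of 0.19 (adjusted p = 0.255).

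**Figure D5:**
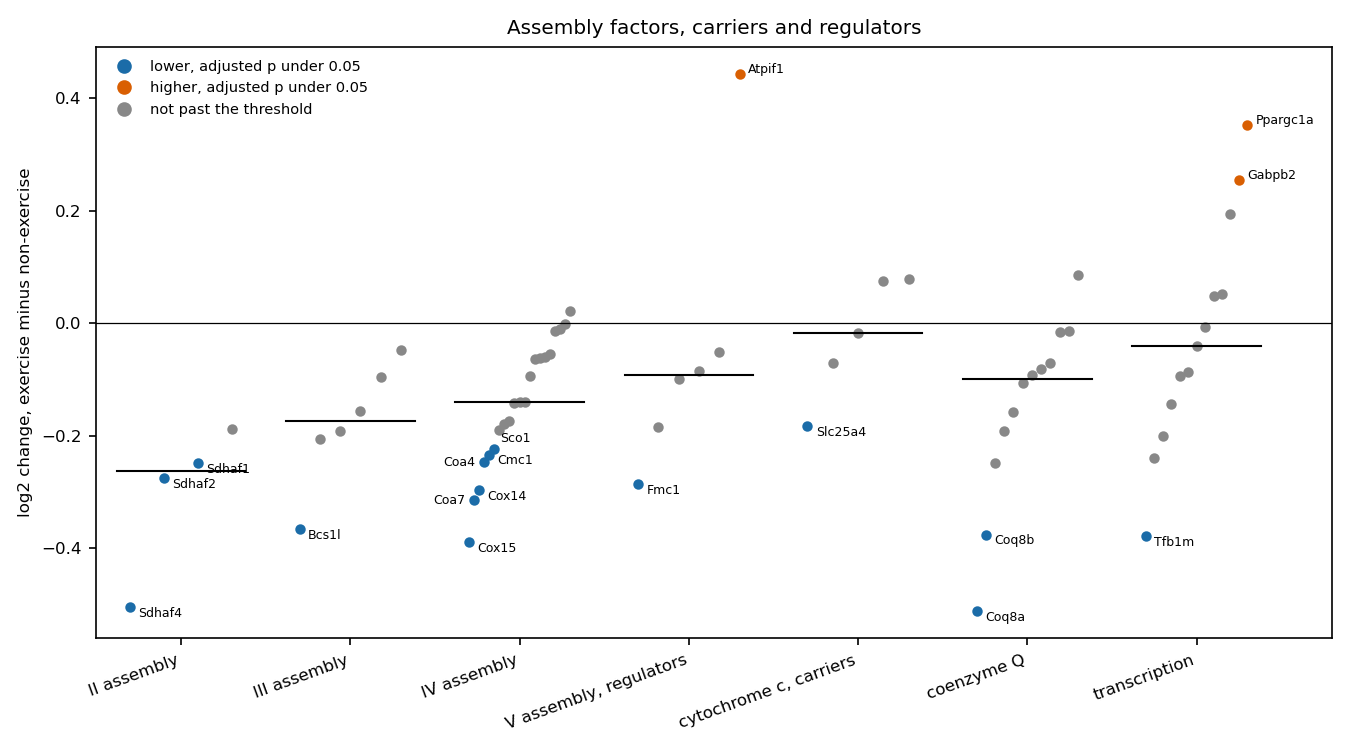
Log2 change, exercise minus non-exercise, of the assembly factors of complexes II to V, the carriers, coenzyme Q synthesis genes and transcriptional regulators, 1 point per gene, with bars at list medians and the lists side by side. Blue points were lower and orange points higher at an adjusted p under 0.05; Sdhaf4 stands at -0.51, Bcs1l at -0.37 and Ppargc1a at 0.35.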

How the data were processed

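Each of 10 mouse melanoma tumours has 1 Affymetrix whole-transcript array of biotin-labelled cDNA. Per the labels' protocols, either of 2 RNeasy kits (mini, Lipid tissue mini) was used for RNA, and the kit of a given tumour is not stated. The deposited values, between 4.66 and 14.55, are taken as log2; per the submitters' processing notes the authors used PLIER, whose version is not stated here; neither are the log base and any normalization between arrays. There is no read depth, and precision is limited by having 5 arrays a group.

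Of 35556 probe sets, 21789 had 1 gene in the platform annotation, 1621 had several and 12146 were not listed. Names were checked against RefSeq GRCm38.p6 by Entrez identifier (21698 matched, 0 changed). The table was quantile normalized in limma 3.58.1 (R 4.3.3), the probe set with the highest mean was kept for each of 999 genes with several, and lmFit and eBayes with an intensity trend were run two-sided over 19938 genes, with Benjamini-Hochberg adjustment at 0.05 and no filter on dim genes. The procedure was tested on simulated data. No pair of arrays shared more than 1 value exactly.

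Genes, lists and tests were chosen with earlier results of these data known, and nothing here is independent support for a pattern those results held. Values are given in each array for all complex II genes, the 4 smallest p in each of complexes III to V, any change over 0.8, the tissue forms of complex IV with their partners, subunit c, and Cyc1, Atp5a1 and Atp5b; other lists give up to 3 genes by smallest p and 7 fixed regulators. Alternatives were the deposited table, median centring, a dim-gene filter, the mean of probe sets, each probe set by itself, no trend, robust variances, array weights, a threshold of 0.01, each array left out, and arrays 306, 309 and 310 left out. Without arrays 306, 309 and 310 the exercise group was arrays 300 and 301 only, and 8.09% of all genes were lower and 3.78% higher. No date or slide was used, so neither was tested as a batch. Listed genes without a single-gene probe set (Sco2, Cox16, Pet100, Pet117, Pdss1 and others) were not used here.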

Additional observations from a re-analysis of the deposited data

Results flagged for a closer look

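Single arrays were looked for in 130 sets of 5 arrays, each a gene or a mean over complex genes in 1 group. In 5 of these sets, all of them for genes, 1 array lay far from the rest. Its gap to the nearest neighbour, divided by the whole range, passed Dixon's limit of 0.71, which chance passes in about 1 of 20. The 5 flagged of 130 sets are a smaller share than that. For Sdhd, a membrane anchor of complex II, exercise array 310 was low at 11.77, with the next at 12.09 (ratio 0.762). For Atp5g3, a gene of the proton ring, non-exercise array 331 was low at 12.83, next to 12.98 (0.795). For Pgk1, the glycolytic enzyme, non-exercise array 327 was low at 13.54 beside 13.61 (0.785). For mt-Co2, listed as COX2, exercise array 310 was high at 13.48 beside 13.14 (0.735), in the same array in which Sdhd was low. For Cycs, cytochrome c, non-exercise array 330 was low at 11.85 beside 12.09 (0.748).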

How the results depend on the processing

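All 6 subunits that fell kept their direction in the 10 alternatives and with each of 10 arrays left out, as did 48 of the 60 genes given by the naming rule. Genes named outside that rule, such as Coa7, Sco1, Coa4, Uqcrc1 and Cox5a, were not run one by one. Uqcrfs1 and Cox6a1 passed the threshold of 0.05 in all of these, as did Cox7a1, which missed 0.01.

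The count of subunits lower was 10 in the deposited table, 14 under median centring, 14 with array weights and 3 at a threshold of 0.01, beside 10.4%, 15.4%, 14.1% and 5.05% of all genes. It was 4 without the intensity trend and 4 without arrays 306, 309 and 310, beside 9.44% and 8.09% of all genes. With 1 array left out the count ran from 4 to 9. The count higher was 1 with each probe set by itself and 1 with array weights, both Atp5g2, and 0 to 1 with 1 array left out. Complex II had 1 gene lower in the deposited table, 2 under median centring and 1 with weights, and 0 to 1 with 1 array left out (1 without 331). Complex III had 2 in the deposited table, 4 under median centring, 2 after the dim-gene filter and 3 with weights, and 1 to 2 with 1 array left out (2 without 306, 310 or 330). Complex IV had 6 with weights and 1 at 0.01, and 2 to 4 with 1 array left out. Complex V had 4 under median centring, 0 without the trend, 4 with weights, 1 at 0.01 and 1 without arrays 306, 309 and 310, and 1 to 3 with 1 array left out (1 without 300, 309, 326, 327 or 330). Assembly factors had 17 under median centring, 5 at 0.01 and 6 without the 3 arrays, and 7 to 12 with 1 array left out (7 without 327 or 329). Under median centring the median change was -0.19 for complex II, -0.18 for complex III and -0.14 for complex V; for complex IV it was -0.033 in the deposited table and -0.030 after the filter, which left 14953 genes and 45 subunits. With 1 array left out the medians ran from -0.12 to -0.07, -0.12 to -0.08, -0.10 to -0.04 and -0.09 to -0.06 in complexes II, III, IV and V. The fewer calls at 0.01 follow from the threshold; for the others the cause was not tested.

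Signs turned only for changes that had not passed. Median centring gave Sdhb -0.0056, Cyc1 -0.055, Cox7b -0.041, Slc25a5 -0.017, Nrf1 -0.028 and Cycs -0.011. Array weights gave Cyc1 -0.019, Cox6b2 0.022, Cox4i2 0.051 and COX2 -0.0064. The mean of probe sets gave Cox7b -0.043, single probe sets gave Cox7b -0.12 and Cycs -0.094, and the deposited table gave Cox6b2 0.020. Without arrays 306, 309 and 310, Sdhd was 0.0080, Cox4i2 0.092, Cox8c -0.020 and Gabpa 0.0076. With 1 array left out, Sdhd ran from -0.096 to 0.0087, Cyc1 from -0.0069 to 0.089, Cox7b from -0.0019 to 0.052, Cox6b2 from -0.089 to 0.036, Cox4i2 from -0.059 to 0.032, Cox8c from -0.056 to 0.062, COX2 from -0.010 to 0.10 and Gabpa from -0.040 to 0.022.

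No paired analysis was possible because the numbers in the titles are not shared between the groups. Signal over background limits the dimmest subunits, Cox7b2 and Cox8b, which the filter removed.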
